A study of Arabidopsis thaliana with 38 samples.

Results

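The step from the inner lower tier to the ground tissue of the early Arabidopsis thaliana embryo was examined on 7 of the 38 arrays of the series. GSC_EG denotes nuclei of the ground tissue at the early globular stage, 81 h after pollination (4 arrays), and ILT_16C denotes inner lower tier nuclei from 16-cell embryos taken at 72 h (3 arrays). The arrays were chosen by their titles alone, and all 27826 loci of the table were compared.

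The inner lower tier is made up of the inner cells of the lower part of the embryo proper, and these cells divide to give the first vascular cells and the first ground tissue cells. Ground tissue later forms the cortex and the endodermis. In the root, the transcription factor SHORT-ROOT (SHR) is made in the vascular cells and its protein moves one layer outward, where it acts with SCARECROW (SCR) and the BIRD zinc finger proteins to set ground tissue identity. Auxin acts in the same cells through MONOPTEROS (MP), an auxin response factor whose targets include the small bHLH protein TMO7.

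The series measured nuclear RNA of embryo cell types on 1-colour microarrays. Nuclei were purified by INTACT, in which a nuclear envelope tag and its biotin ligase are expressed together only in the chosen cells. The 2 further groups used for comparison with the step were whole-embryo nuclei at 81 h (EMB_EG, 4 arrays) and at 72 h (EMB_16C, 3 arrays), and vascular nuclei at 81 h (VSC_EG, 4 arrays) served as the second product of the inner lower tier. The sources used here name no ecotype and no promoter that drove the tag in each group, and each replicate is a pool of embryos from hand-pollinated flowers. All groups carried the tagging system and no treatment separated them. The cell type and the time change together between ILT_16C and GSC_EG, so the effect of one cannot be told apart from that of the other.

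All levels below are log2 values of the deposited RMA intensities, and each change is the mean of the first group minus the mean of the second on that scale. Array medians lay between 2.49 and 2.53 in GSC_EG and between 2.47 and 2.59 in ILT_16C. ILT_16C 1 stood apart: its interquartile range was 2.1, against 1.59 to 2.01 on the GSC_EG arrays and 1.27 and 1.28 on the other ILT_16C arrays. It correlated with the GSC_EG arrays at a mean r of 0.82 across loci, and with the 2 other ILT_16C arrays at 0.756. In this order it did not differ from the rest of its group. ILT_16C 2 had 0.731 with GSC_EG and 0.724 with its own group, and ILT_16C 3 had 0.757 and 0.747. Pairs of GSC_EG arrays correlated at 0.789 to 0.871 and pairs of ILT_16C arrays at 0.715 to 0.779. List medians, and calls at the step of genes with a symbol, that moved clearly without ILT_16C 1 are given with and without it.

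Few genes passed the test at the step, which does not show that the others did not change. In ground tissue 8 genes rose and 13 fell at an adjusted p under 0.05, which is 21 genes or 0.0755% of the loci (0.0288% higher, 0.0467% lower). The risers that have a name in the gene table were TMO7, the heat shock transcription factor HSFA2 and the carbonic anhydrase gene CA1. The named genes that fell were the RNA polymerase subunit gene NRPB8A, the cytochrome P450 gene CYP705A27 and FAF1, a gene known for its part in controlling shoot meristem size. The remaining 15 genes have no symbol in the gene table, and they are listed here after their values were seen. All 21 genes had arrays that did not overlap between the groups, a property that 6.75% of all loci shared (3.13% higher, 3.62% lower in ground tissue). At an unadjusted p under 0.05 limma gave 2465 loci, or 8.86% (4.25% higher, 4.61% lower). Quantile normalization of the log2 values left 3 calls, 0 higher and 3 lower, against 8 higher and 13 lower as reported. Without ILT_16C 1 there were 72 calls, 23 higher and 49 lower, which held 15 of the 21 genes. A fit of the GSC_EG and ILT_16C arrays alone, with the spread taken from them, called 0 genes. Against a 2-fold threshold 0 genes were called too.

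**Figure D1:**
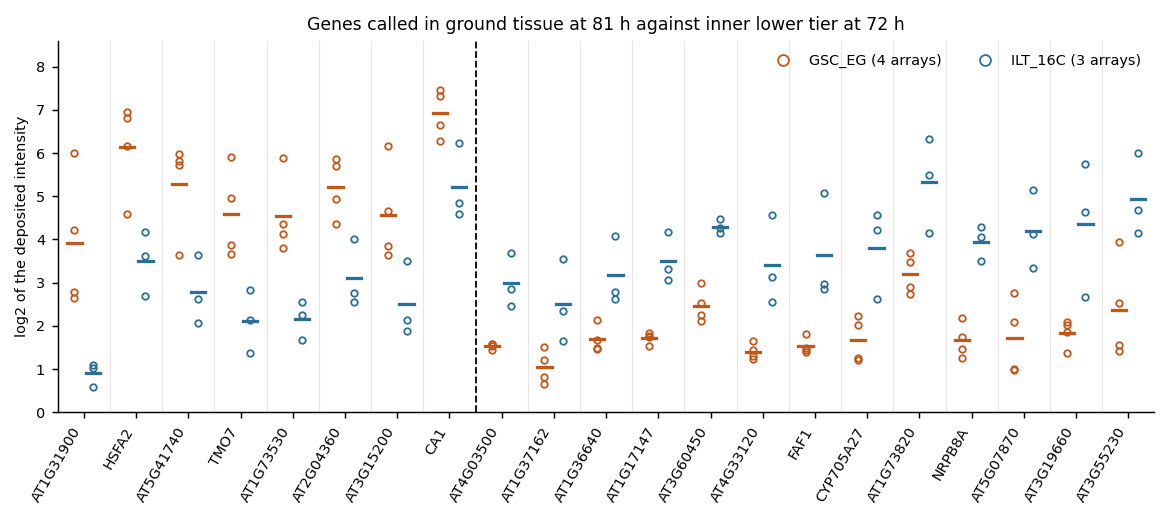
Log2 intensity on each array (circles) and group mean (bars) of the 21 called genes, with GSC_EG left of ILT_16C for each gene and the 8 genes that rose left of the dashed line. The circles of the groups do not overlap for any of the 21 genes, although the GSC_EG 4 and ILT_16C 1 values of AT5G41740 are equal at 2 decimals.

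TMO7, which encodes a bHLH protein without a DNA-binding basic region that MP activates in the embryo, had levels of 5.91, 3.86, 3.66 and 4.95 in GSC_EG, against 1.38, 2.82 and 2.14 in ILT_16C. Every ground tissue array lay above every inner lower tier array. The change was 2.48 ± 0.475 (SE, limma, adjusted p = 0.0374). The ILT_16C mean of TMO7, 2.11, lay below the medians of these arrays, and the table gives no detection call, so its size rests on a dim level. TMO7 remained called in 3 of the 7 fits that left out 1 array, and without ILT_16C 1 its change was 2.11 (adjusted p = 0.0774).

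HSFA2, a transcription factor known for its induction by heat, had levels of 6.17, 6.96, 6.82 and 4.58 in GSC_EG, against 4.18, 3.61 and 2.68 in ILT_16C. GSC_EG 4 was the lowest ground tissue array and still lay above all 3 inner lower tier arrays. The change was 2.64 ± 0.515 (limma, adjusted p = 0.0374), and it was 2.98 without ILT_16C 1 (adjusted p = 0.0134). HSFA2 was called in 2 of the 7 fits that left out 1 array, and not in those without ILT_16C 2, ILT_16C 3, GSC_EG 1, GSC_EG 2 or GSC_EG 3.

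CA1, which encodes a chloroplast beta carbonic anhydrase, had levels of 7.45, 7.33, 6.65 and 6.29 in GSC_EG, against 6.23, 4.59 and 4.84 in ILT_16C. The gap between the lowest ground tissue array and ILT_16C 1 was small, and the other inner lower tier arrays were clearly lower. The change was 1.71 ± 0.36 (limma, adjusted p = 0.0492), and 2.21 without ILT_16C 1 (adjusted p = 0.00375). CA1 too was called in 2 of the 7 fits, and it was lost without ILT_16C 2, ILT_16C 3, GSC_EG 1, GSC_EG 2 or GSC_EG 3 and after median centring or quantile normalization.

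The 5 risers without a symbol changed by 2.06 to 3.01. AT1G31900, annotated as a transcribed pseudogene, showed the largest change, with 5.99, 2.78, 4.22 and 2.65 in GSC_EG against 1.03, 0.59 and 1.1 in ILT_16C (3.01 ± 0.587, limma, adjusted p = 0.0374). Its ground tissue arrays spread widely and its inner lower tier arrays were all near the bottom of the scale. AT5G41740 had 5.98, 5.81, 5.73 and 3.64 in GSC_EG against 3.64, 2.62 and 2.06 in ILT_16C, and AT1G73530 had 4.36, 5.88, 4.12 and 3.80 in GSC_EG against 1.67, 2.24 and 2.55 in ILT_16C. AT5G41740 thus separated the groups by less than 0.01, whereas AT1G73530 had a clear gap between them. The call of AT1G73530 (limma, adjusted p = 0.0492) was no firmer for that. It was kept in 1 of the 7 fits that left out 1 array, and that of AT5G41740 in 2. AT1G73530 was also not called after median centring (adjusted p = 0.0585) or quantile normalization (adjusted p = 0.165). The changes were 2.52 for AT5G41740, 2.39 for AT1G73530, 2.11 for AT2G04360 and 2.06 for AT3G15200.

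FAF1 had 1.45, 1.82, 1.48 and 1.40 in GSC_EG, against 2.85, 5.08 and 2.96 in ILT_16C. The ground tissue arrays were tight and low, and ILT_16C 2 was far above the other inner lower tier arrays. FAF1 fell by 2.09 on the log2 scale (SE 0.36, limma, adjusted p = 0.0177). Without ILT_16C 2 the change was -1.37 and the call was lost, and without any other single array it was kept.

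NRPB8A, a subunit that several nuclear RNA polymerases share, had 2.19, 1.26, 1.74 and 1.46 in GSC_EG, against 4.05, 4.28 and 3.50 in ILT_16C. All 3 inner lower tier arrays were high and close together, so no single array set the difference. NRPB8A fell by 2.28 (SE 0.404, limma, adjusted p = 0.0177), and it too was called in 6 of the 7 fits that left out 1 array, the exception being the fit without ILT_16C 2 (adjusted p = 0.0743). CYP705A27, of a plant cytochrome P450 family, had 2.23, 1.26, 1.2 and 2.03 in GSC_EG against 4.21, 4.57 and 2.61 in ILT_16C, with ILT_16C 3 nearest to ground tissue, and fell by 2.12 (adjusted p = 0.0374). Without ILT_16C 1 its change was -1.91 and the call was lost (limma, adjusted p = 0.0734). It was called in 3 of the 7 fits that left out 1 array.

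The 10 unnamed genes that fell changed by -1.46 (AT4G03500) to -2.58 (AT3G55230). AT1G17147 had 1.73, 1.84, 1.53 and 1.77 in GSC_EG against 3.31, 3.05 and 4.17 in ILT_16C, and with FAF1 and NRPB8A it was the gene most often kept when single arrays were left out, in 6 of 7 fits. AT4G33120 had 1.23, 1.64, 1.44 and 1.3 in GSC_EG against 2.55, 3.12 and 4.57 in ILT_16C and was kept in 5 of 7. AT3G60450 had 2.52, 2.12, 2.99 and 2.25 in GSC_EG against 4.27, 4.47 and 4.14 in ILT_16C and was kept in 0 of 7. Of all the called genes, 6 of the 13 that fell, and 0 of the 8 that rose, belonged to the 25% of loci with the lowest mean over all 38 arrays. None of the 21 genes was called in all 7 fits.

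Set beside the 11 groups of the series, the 13 genes that fell all had their highest group mean in ILT_16C, a property that the choice by this contrast favours. For 6 of the 8 genes that rose, GSC_EG had the highest mean, which the same choice favours. TMO7 averaged 4.6 ± 1.05 (SD, n = 4) in GSC_EG, and the next groups were EMB_EG at 3.39 ± 0.845 (n = 4), late globular ground tissue (GSC_LG, 100 h) at 3.25 ± 0.22 (n = 3) and late globular quiescent centre at 3.09 ± 0.287 (n = 3), whose ranges overlapped one another. The EMB_EG range, 2.77 to 4.57, also overlapped that of GSC_EG, 3.66 to 5.91. HSFA2 averaged 6.13 ± 1.09 in GSC_EG and 5.72 ± 0.107 (n = 3) in suspensor nuclei at 81 h, which lay within the ground tissue range, and 2.77 ± 0.327 (n = 4) in EMB_EG, the lowest group. AT1G73530 averaged 4.54 ± 0.922 in GSC_EG and 4.42 ± 0.409 (n = 3) in GSC_LG, and the next group was quiescent centre at 3.42 ± 0.881 (n = 3). NRPB8A and FAF1 had their lowest means of all groups in GSC_EG, at 1.66 ± 0.403 and 1.54 ± 0.192. These means lie under the lower quartile of every GSC_EG array, and 12 of the 13 genes that fell had a GSC_EG mean under the highest median of these arrays, so neither rank nor size is firm at such levels. CA1 had its 4 highest means in the 4 groups taken at 81 h, with 7.63 ± 0.132 (n = 4) in EMB_EG, 6.93 ± 0.554 in GSC_EG, 6.84 ± 0.343 (n = 3) in suspensor and 6.47 ± 0.234 (n = 4) in VSC_EG. The last 3 of these overlapped, and GSC_LG stood at 4.48 ± 0.527. EMB_16C, at 6.32 ± 0.692 (n = 3), and the whole embryo at 100 h, at 6.21 ± 0.539 (n = 4), overlapped GSC_EG and VSC_EG, so the 81 h groups were not set apart.

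None of the 12 regulators on the ground tissue list was called, and 4 of them lay above 0 and 8 below. The list median was -0.15, against -0.041 over all loci, and it was 0.10 without ILT_16C 1. The list also did not set ground tissue apart from vascular nuclei of the same time, with 0 of 12 called in GSC_EG against VSC_EG, and 6 of the 12 had a GSC_EG mean at or under the highest median of the GSC_EG arrays. The name ground tissue is therefore used as the labels give it.

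SHR, the mobile regulator at the head of the list, had 4.13, 4.51, 3.45 and 5.35 in GSC_EG, against 6.46, 5.86 and 5.82 in ILT_16C. All 4 ground tissue arrays lay below all 3 inner lower tier arrays, which 3.62% of all loci did in that direction. The change of -1.69 ± 0.486 did not pass the test (limma, adjusted p = 0.226), nor did it under any of the alternatives run, where the change lay between -1.38 and -2.02. Ordered by p-value (limma), SHR was number 100 among the loci that fell. Of the 11 groups ILT_16C had the highest mean of SHR, 6.05 ± 0.359 (n = 3), and GSC_EG the lowest, 4.36 ± 0.795 (n = 4). Neither rank was clear of other groups. Late globular quiescent centre (4.51 ± 1.15) and suspensor at 81 h (4.56 ± 0.931) overlapped GSC_EG, and VSC_EG reached 6.03, inside the ILT_16C range. VSC_EG averaged 5.15 ± 0.65, and GSC_EG minus VSC_EG was -0.79 (adjusted p = 0.443).

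SCR, the partner of SHR, had 3.31, 2.47, 2.98 and 3.72 in GSC_EG and 4.42, 2.80 and 3.51 in ILT_16C. The groups overlapped and the change was -0.46 ± 0.451 (adjusted p = 0.842). The BIRD genes gave small changes of both signs: 0.26 for JKD, -0.11 for MGP and -0.80 for NUC, the last with 1.74, 1.56, 1.90 and 1.93 in GSC_EG against 1.66, 3.25 and 2.85 in ILT_16C (adjusted p = 0.408). The GRAS family genes SCL23 and SCL3 changed by -0.66 and -0.20, and both had their highest value on ILT_16C 1, at 5.03 for SCL23 and 4.49 for SCL3, while their other inner lower tier arrays lay within the ground tissue range. SCZ, a heat shock factor family member needed for the asymmetric division of ground tissue stem cells, changed by 0.35. CYCD6;1, the cyclin that SHR and SCR activate in the root for the formative division, changed by 0.36, with GSC_EG 4 at 3.58 and the other ground tissue arrays at 1.91, 1.5 and 1.89. MYB36, which directs Casparian strip formation in the endodermis, had 1.40, 1.1, 1.13 and 1.11 in GSC_EG and 1.29, 1.58 and 2.28 in ILT_16C, low in both groups. The remaining members, AT1G14580 and AT3G45260, changed by 0.46 and -0.04.

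The vascular list of 22 genes had no call at the step, with 16 genes above 0 and 6 below and a median of 0.28. REV, ATHB-15 and AGO10 showed its largest positive changes. REV, a class III homeodomain leucine zipper gene, had 4.40, 2.94, 4.29 and 4.73 in GSC_EG and 3.53, 2.91 and 2.79 in ILT_16C. Only GSC_EG 2 fell within the inner lower tier range (1.01 ± 0.387, adjusted p = 0.403). ATHB-15 of the same class had 2.98, 3.51, 3.52 and 3.10 in GSC_EG against 2.23, 2.54 and 2.72 in ILT_16C, with no overlap (0.78 ± 0.257, adjusted p = 0.32). AGO10, an Argonaute that keeps microRNAs off these mRNAs, had 3.46, 3.03, 4.49 and 3.03 in GSC_EG against 2.46, 2.64 and 2.68 in ILT_16C, also without overlap (0.91 ± 0.397, adjusted p = 0.484). Of the 22 genes, 2 separated the groups upward and 0 downward, against 3.13% and 3.62% of all loci. PHB and PHV, the other class III members with positive changes, gave 0.32 and 0.47, and ATHB-8 gave -0.33.

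Among the auxin-related genes of the vascular list, MP itself had 6.14, 4.75, 6.74 and 5.92 in GSC_EG and 5.47, 3.87 and 6.19 in ILT_16C, so its groups overlapped (0.71 ± 0.594, adjusted p = 0.803), unlike those of its target TMO7. BDL, the Aux/IAA repressor of MP, changed by -0.38, and TMO5, the bHLH partner of LHW in vascular divisions, by 0.41. LHW changed by 0.13, T5L1 by 0.20, and the cytokinin synthesis genes LOG4 and LOG3 by 0.27 and -0.51. AHP6, an inhibitor of cytokinin signalling, had the lowest change of the list, -0.75, from a single value of 5.96 on ILT_16C 2, with 2.43, 1.81, 2.83 and 2.08 in GSC_EG and 1.22 and 1.94 on the other inner lower tier arrays. Among the DOF genes, TMO6 changed by 0.19, DOF6 by 0.46 and DOF2.4 by 0.28. The cytokinin receptor gene AHK4 changed by 0.04, IQD15 by 0.53, AT2G28510 by -0.05 and AT5G02460 by -0.10.

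**Figure D2:**
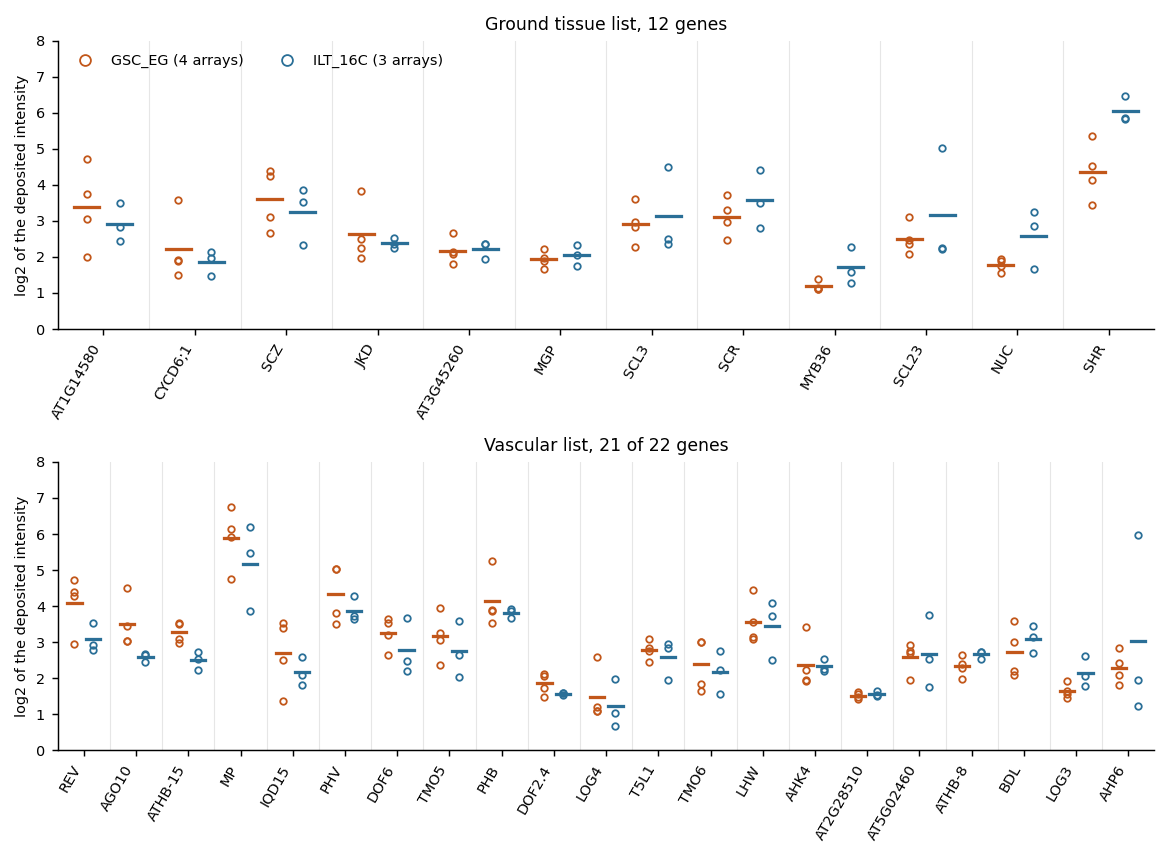
Log2 intensity on each array (circles) and group mean (bars) of the 12 genes of the ground tissue list and 21 of the 22 genes of the vascular list, GSC_EG left of ILT_16C, ordered by change. SHR stands at the right of the upper panel with all GSC_EG arrays under 5.36 and all ILT_16C arrays above 5.81, and no other gene of that list separates the groups.

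Of the 394 genes on all 24 lists, 2 were called at the step, against 0.0755% of all loci: TMO7 of the root meristem list and HSFA2 of the heat shock list. The root meristem list (12 genes, SHR among them) had a median of 0.19, and 0.03 without ILT_16C 1. Its PLETHORA genes PLT1, PLT2, PLT3 and BBM, which maintain the root stem cell niche, changed by 0.68, -0.29, 0.33 and 0.63, and WOX5 of the quiescent centre by 0.22, none of them past the test. Lists of other embryonic and seed cell types had no call: protoderm (11 genes, median 0.28), suspensor (8, -0.12), shoot apex and cotyledon (16, 0.11), endosperm (13, -0.16), seed coat (16, -0.08) and pollen (18, -0.13). Without ILT_16C 1 the median of the seed coat list was 0.40, and those of the shoot apex, endosperm and pollen lists were -0.04, -0.28 and -0.26. The log2 levels of the seed coat list summed to 77.1 to 94.2 per array in GSC_EG and to 77.0 to 98.5 in ILT_16C, those of the endosperm list to 24.2 to 30.6 in GSC_EG and 25 to 28.7 in ILT_16C, and those of the pollen list to 45.0 to 57.0 in GSC_EG and 49.6 to 64.5 in ILT_16C. These sums overlapped between the groups, no marker was at 0 on this scale, and the part of such cells in the calls was not tested. A lower level in these pooled nuclei can come from fewer expressing cells or from less RNA per cell, and the arrays cannot tell these apart.

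The seed coat list had TT8, a bHLH regulator of flavonoid synthesis, as its largest change, with 2.68, 2.99, 2.81 and 3.32 in GSC_EG against 4.56, 3.64 and 3.58 in ILT_16C (-0.98, adjusted p = 0.531). HDG12 and PDF2, epidermal homeodomain genes, gave the largest changes of the protoderm list, 0.79 and 0.60. PIN7, an auxin efflux carrier of the suspensor, had 1.78, 2.63, 2.31 and 2.05 in GSC_EG and 4.08, 2.43 and 2.52 in ILT_16C (-0.82, adjusted p = 0.527), the high value being that of ILT_16C 1.

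Cell cycle genes showed no call. The D-type cyclin list (10 genes) had a median of 0.33, and CYCD3;1, which drives entry into division, had 4.45, 6.25, 4.21 and 2.87 in GSC_EG and 2.05, 2.79 and 2.96 in ILT_16C. GSC_EG 4 lay within reach of the inner lower tier arrays and the other ground tissue arrays were well above them (1.84 ± 0.545, adjusted p = 0.226). The G2 and M phase list (22 genes) had a median of 0.19, and its largest changes were those of CYCB2;4 (1.06) and PLE (0.97), a microtubule bundling protein of the phragmoplast. Both had arrays that did not overlap, PLE with 2.79, 2.55, 2.98 and 3.14 in GSC_EG against 1.76, 2.25 and 1.69 in ILT_16C (adjusted p = 0.32). In that direction 3.13% of all loci separated the groups. The S phase list (19 genes) had a median of 0.14, led by RNR1 (0.83), a ribonucleotide reductase subunit, and MCM6 (0.72) of the replicative helicase. Without ILT_16C 1 the medians were 0.27 for D-type cyclins, -0.02 for G2 and M phase and 0.08 for S phase.

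Auxin and cytokinin lists had no call either. Receptors and response factors (20 genes) had a median of 0.23, with ARF1 at 1.06 and ARF6 at 0.78. The 29 Aux/IAA repressors had a median of -0.06, with IAA20 at -0.93 and IAA14 at -0.91. Auxin transport and synthesis genes (20) had a median of 0.00, with AUX1, the influx carrier, at 0.86, and cytokinin genes (16) one of -0.03, with the response regulator ARR7 at -0.84 from a single high value of 4.73 on ILT_16C 1. DNA methylation genes (15) had a median of 0.20, led by VIM1 (0.98), and Polycomb genes (10) one of 0.15, led by LHP1 (0.67) and MSI1 (0.67). Without ILT_16C 1 the medians were 0.34 for receptors and response factors, -0.18 for Aux/IAA repressors, -0.09 for auxin transport and synthesis, 0.02 for cytokinin, 0.27 for DNA methylation and 0.02 for Polycomb genes.

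In the heat shock list HSFA2 was the only call among the 17 genes, and the list median was 0.34, and 0.50 without ILT_16C 1. HSP70, a cytosolic chaperone, had 7.15, 7.34, 6.6 and 5.15 in GSC_EG and 6.24, 3.55 and 2.97 in ILT_16C, and HSP101, a disaggregase named here after its values were seen, had 6.72, 7.68, 6.50 and 4.17 in GSC_EG and 4.35, 2.04 and 3.93 in ILT_16C. In both genes GSC_EG 4 was the low ground tissue array and ILT_16C 1 the high inner lower tier array. The changes of 2.30 for HSP70 and 2.83 for HSP101 did not pass the test (limma, adjusted p = 0.116 and 0.107). Both passed it without ILT_16C 1, at 3.30 (adjusted p = 0.00164) and 3.29 (adjusted p = 0.0421). That fit called 72 genes, 5 of them on the lists, against 21 and 2 with all arrays. The small heat shock protein genes HSP17.6A and HSP18.2, also chosen after the fact, gave -1.85 and -1.26, with HSP17.6A at 3.54, 4.63, 2.65 and 2.35 in GSC_EG and 6.29, 6.46 and 2.67 in ILT_16C (adjusted p = 0.513). The summed level of the list was 59.3 to 80.6 in GSC_EG and 61.3 to 67.7 in ILT_16C, against 43.9 to 49.8 in EMB_EG and 44.1 to 50.0 in EMB_16C. The early response and jasmonate list (24 genes) had no call and a median of 0.04 (0.29 without ILT_16C 1), with the stress-responsive WRKY40 at 1.08 and the jasmonate repressor gene JAZ7 at -1.22, and its summed level was 123.5 to 134.7 in GSC_EG and 116.8 to 134.8 in ILT_16C, against 85.4 to 96.2 in EMB_EG and 88.1 to 104.0 in EMB_16C.

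Photosynthesis genes lay mostly above 0 and none passed the test: 24 of 31 were positive, with a median of 0.26. PSBO2, of the oxygen-evolving complex, had 5.13, 5.27, 4.89 and 4.30 in GSC_EG against 3.92, 3.94 and 2.68 in ILT_16C (1.39 ± 0.526, adjusted p = 0.397), and the antenna gene LHCA2 had 5.43, 6.39, 5.13 and 5.0 in GSC_EG against 3.72, 4.35 and 4.63 in ILT_16C (1.25 ± 0.518, adjusted p = 0.45). Neither overlapped between the groups. Of the 31 genes, 3 separated the groups upward and 1 downward, against 3.13% and 3.62% of all loci. The summed level of the list was 158.8 to 180.2 per array in GSC_EG and 157.6 to 158.5 in ILT_16C.

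Seed maturation genes lay mostly below 0, with 14 of 19 negative and a median of -0.39, and none was called. SESA1, a 2S storage albumin gene, had 2.32, 2.31, 2.84 and 2.16 in GSC_EG against 3.15, 5.05 and 4.21 in ILT_16C (-1.73 ± 0.428, adjusted p = 0.142). Without ILT_16C 1 it fell by 2.22 (limma, adjusted p = 0.0201), in the fit that called 72 genes. SESA4 had 2.56, 1.8, 1.77 and 4.21 in GSC_EG and 5.44, 3.98 and 3.71 in ILT_16C, with GSC_EG 4 inside the inner lower tier range (-1.79, adjusted p = 0.536).

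The cell wall and surface list had a median of -0.58 at the step, and -0.53 without ILT_16C 1, with 15 of 19 genes negative and none called. Its summed level was 79.7 to 89.0 per array in GSC_EG and 92.1 to 96.5 in ILT_16C. HRGP1, a hydroxyproline-rich glycoprotein, had 3.69, 2.99, 1.88 and 3.33 in GSC_EG and 3.64, 5.57 and 5.06 in ILT_16C (-1.78 ± 0.423, adjusted p = 0.116). Without ILT_16C 1 it fell by 2.34 (limma, adjusted p = 0.0107), in the fit that called 72 genes. DOT1, a glycine-rich protein gene of leaf vein patterning, gave -1.55 (adjusted p = 0.662) on arrays that overlapped widely. The ER body list (8 genes) covers the myrosinase-type glucosidases stored in endoplasmic reticulum bodies and their partners. It had a median of -0.54, and -0.77 without ILT_16C 1, with BGLU21 at -2.07 and NAI2 at -1.55. Neither fall was particular to ground tissue. In VSC_EG minus ILT_16C the medians were -0.46 for the cell wall and surface list and -1.87 for the ER body list.

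**Figure D3:**
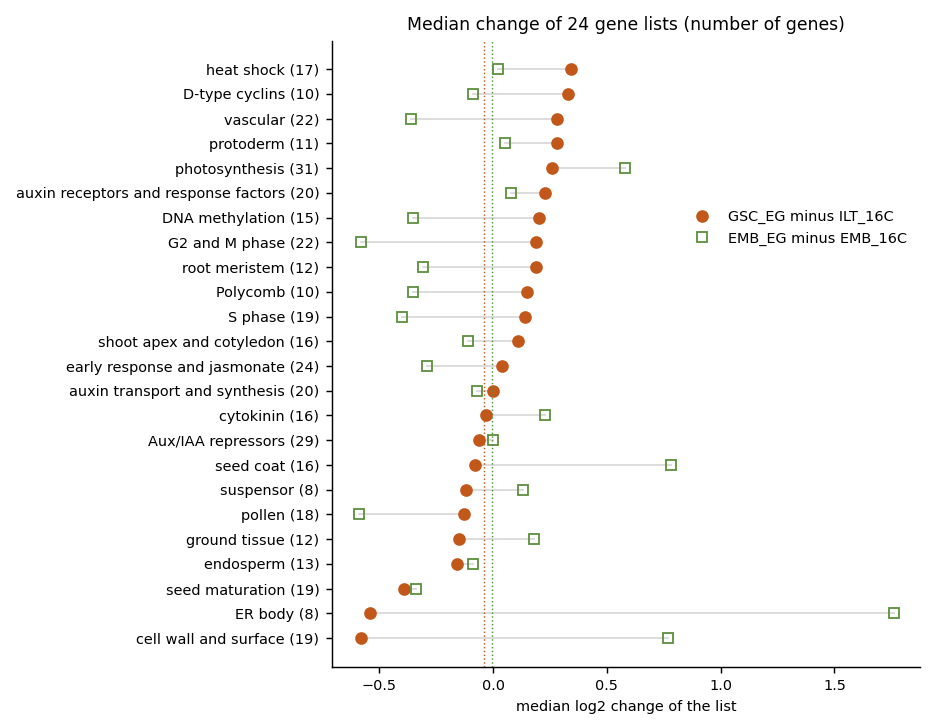
Median log2 change of each of the 24 lists in GSC_EG minus ILT_16C (filled circles) and in EMB_EG minus EMB_16C (open squares), with the medians of all loci as dotted lines and list sizes in brackets. The cell wall and surface list lies at -0.58 in the ground tissue step and 0.77 in the whole-embryo step, and the ER body list at -0.54 and 1.76.

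The whole embryo over the same hours provides a step that shares no array with the ground tissue step. EMB_EG differed from EMB_16C at 52 loci, 36 higher and 16 lower (0.187% of loci, 0.129% higher and 0.0575% lower), and none of the 21 genes of the ground tissue step was among them. Of the 8 genes that rose in ground tissue 6 had a positive change in the whole embryo, and of the 13 that fell 5 had a negative one. TMO7 changed by 1.3 in the whole embryo (adjusted p = 0.341) and CA1 by 1.3 (adjusted p = 0.126), whereas HSFA2 changed by -0.66 (adjusted p = 0.825) and FAF1 by -0.01. Across loci the changes of the steps had a Pearson r of -0.02, with standard deviations of 0.53 in the ground tissue step and 0.55 in the whole embryo, a description over loci that share arrays within each step.

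The gene lists parted in several places, none of which was put to a test as a list. The G2 and M phase list was at 0.19 in the ground tissue step and -0.58 in the whole embryo, the S phase list at 0.14 and -0.40, the root meristem list at 0.19 and -0.31, the vascular list at 0.28 and -0.36, and the DNA methylation list at 0.20 and -0.35. Over the settings run, the ground tissue medians ranged from -0.02 to 0.34 for G2 and M phase and -0.01 to 0.24 for S phase. Those of the root meristem, vascular and DNA methylation lists ranged from 0.03 to 0.42, 0.04 to 0.40 and 0.02 to 0.35. Photosynthesis genes were positive in both, at 0.26 and 0.58, and seed maturation genes negative in both, at -0.39 and -0.34. The medians of all loci were -0.041 and -0.003.

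**Figure D4:**
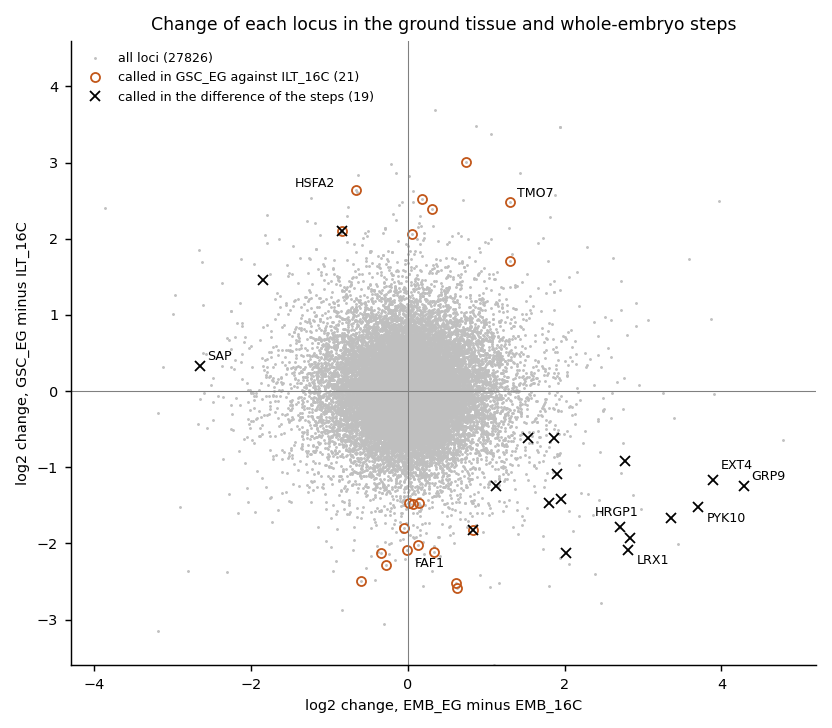
Log2 change of each locus (grey points) in EMB_EG minus EMB_16C (horizontal) and GSC_EG minus ILT_16C (vertical), with the 21 genes called in the ground tissue step as circles and the 19 genes called in the difference of the steps as crosses. Most crosses lie at the lower right, above 0 in the whole embryo and below 0 in the ground tissue step.

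The difference between the steps was tested directly, and 19 loci passed (0.0683%), 16 with a lower (0.0575%) and 3 with a higher change (0.0108%) in the ground tissue step. All 16 had a positive change in the whole embryo and a negative one in ground tissue, which the choice by the difference favours. Of the 16, 4 belong to the cell wall or ER body lists: GRP9, PYK10, EXT4 and HRGP1. Because the overlap criterion for named genes does not apply to a difference of 4 groups, genes were taken by size of the difference.

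PYK10, the major beta-glucosidase of ER bodies, had 7.02, 6.68, 4.55 and 4.54 in GSC_EG and 6.18, 7.74 and 7.75 in ILT_16C. In the whole embryo it had 7.72, 7.94, 8.38 and 8.77 in EMB_EG against 4.11, 5.80 and 3.59 in EMB_16C. The whole-embryo groups were fully separate and the ground tissue and inner lower tier arrays were not. PYK10 rose by 3.70 in the whole embryo (limma, adjusted p = 0.00239) and changed by -1.53 in ground tissue (adjusted p = 0.404), a difference of -5.23 (adjusted p = 0.00328).

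HRGP1 showed the same arrangement, with 3.58, 4.35, 5.10 and 5.01 in EMB_EG against 1.75, 1.52 and 2.16 in EMB_16C. Its inner lower tier arrays, given above, overlapped those of the whole embryo at 81 h. HRGP1 rose by 2.7 in the whole embryo (adjusted p = 0.00239), and the difference of the steps was -4.48 ± 0.598 (adjusted p = 0.000305).

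EXT4, an extensin of the wall, had 5.12, 4.05, 3.31 and 3.64 in GSC_EG and 4.17, 6.02 and 5.38 in ILT_16C, with 6.50, 6.64, 7.46 and 4.39 in EMB_EG against 2.04, 3.37 and 1.65 in EMB_16C. The ground tissue and inner lower tier values of EXT4 overlapped, and the whole-embryo values did not. The difference was -5.05 ± 0.861 (adjusted p = 0.00881), and those of GRP9, a glycine-rich protein, and LRX1, a chimeric extensin of root hair walls, were -5.53 and -4.89 (adjusted p = 0.00881 for both).

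GRP9 had 5.99, 2.82, 2.78 and 2.34 in GSC_EG and 4.90, 4.74 and 4.52 in ILT_16C, with 5.03, 5.77, 6.17 and 5.67 in EMB_EG against 1.41, 1.49 and 1.23 in EMB_16C. GSC_EG 1 was far above the other ground tissue arrays. The EMB_16C values of GRP9 all lay under the lower quartile of their array (1.854 to 2.051). Those of HRGP1 on EMB_16C 1 and EMB_16C 2, and of EXT4 on EMB_16C 3, did so too. The sizes of these differences thus rest in part on dim levels. LRX1 had 1.95, 2.45, 1.79 and 3.62 in GSC_EG and 5.85, 3.23 and 4.52 in ILT_16C, where GSC_EG 4 alone reached the inner lower tier range. UGT72E2, which glucosylates monolignols, had 3.30, 1.51, 1.24 and 1.16 in GSC_EG and 3.59, 3.27 and 4.94 in ILT_16C, and its difference was -4.14 ± 0.719 (adjusted p = 0.00881).

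Further genes with a symbol, outside the naming rule and chosen after their values were seen, were BBX21, a B-box regulator of light signalling (-3.27), the laccase LAC7 (-3.00) and CYP79B2, which makes indole-3-acetaldoxime from tryptophan (-2.15). AT4G11320, whose synonym in the gene table is cysteine protease 2, had 3.59, 4.39, 2.48 and 4.73 in GSC_EG and 5.81, 5.09 and 5.50 in ILT_16C, with 5.92, 5.57, 6.58 and 7.59 in EMB_EG against 2.27, 4.01 and 2.89 in EMB_16C. Neither pair of groups overlapped, and the steps ran in opposite directions (difference -5.03 ± 0.741, adjusted p = 0.00119). At 72 h the ILT_16C mean exceeded that of EMB_16C for 15 of the 16 genes, and at 81 h the GSC_EG mean was below that of EMB_EG for all 16, counts that describe the genes and that their choice by this difference favours. Of the 16 genes 9 were called in the whole-embryo step and 1, AT3G60450, in the ground tissue step.

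The seed coat list moved in the whole embryo along with these genes, at a median of 0.78 with 14 of 16 genes positive and none called. Its summed level was 81.9 to 94.2 in EMB_EG and 72.0 to 84.4 in EMB_16C, and its part in the difference was not tested. The 3 genes with a higher change in the ground tissue step were SAP, an F-box regulator of flower development, AT2G04360 and AT5G22580. SAP had 3.00, 3.65, 4.02 and 2.41 in GSC_EG and 2.60, 3.40 and 2.80 in ILT_16C, but 2.63, 2.5, 2.54 and 2.76 in EMB_EG against 5.74, 3.70 and 6.34 in EMB_16C (difference 2.99 ± 0.614, adjusted p = 0.0384). SAP fell by 2.65 in the whole embryo (adjusted p = 0.00297), and its change in the ground tissue step was 0.33 on overlapping arrays. AT2G04360 had 4.94, 4.36, 5.70 and 5.87 in GSC_EG against 4.00, 2.56 and 2.77 in ILT_16C, with 4.41, 4.58, 4.41 and 3.90 in EMB_EG and 4.50, 5.79 and 5.22 in EMB_16C (difference 2.95 ± 0.59, adjusted p = 0.0351).

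**Figure D5:**
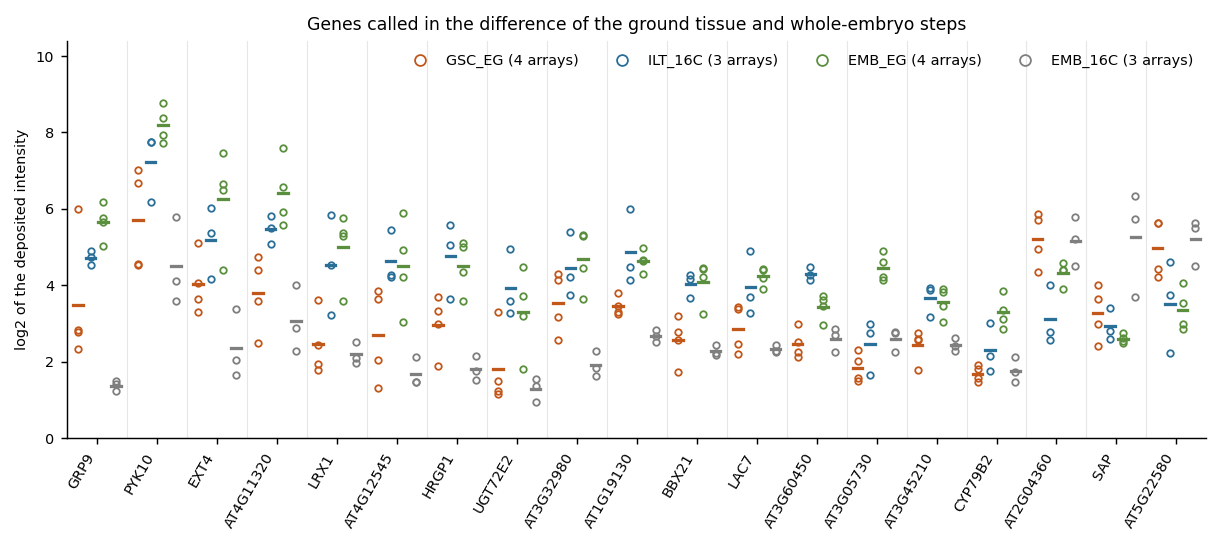
Log2 intensity on each array (circles) and group mean (bars) of the 19 genes called in the difference of the steps, with GSC_EG, ILT_16C, EMB_EG and EMB_16C from left to right for each gene. For the 16 genes at the left the EMB_16C bar lies below the EMB_EG bar and the GSC_EG bar below the ILT_16C bar.

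Of the whole-embryo step's own leading genes, OBP1, a DOF factor, fell by 2.2 and RGF8, a root meristem growth factor peptide, fell by 1.82 there (adjusted p = 0.0354 and 0.0339), whereas they changed by 0.71 and 0.41 in the ground tissue step. DIN4, a dark-inducible gene of branched-chain amino acid breakdown, rose by 2.59 in the whole embryo (adjusted p = 0.0486) and changed by 0.93 in ground tissue. For none of OBP1, RGF8 and DIN4 did the difference of the steps pass the test.

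Vascular nuclei of the same time descend from the same inner lower tier cells, and since the ground tissue and vascular steps start from the same ILT_16C arrays, GSC_EG minus VSC_EG equals the difference between them. It gave 206 calls (0.74% of loci), 62 higher (0.223%) and 144 lower (0.518%), and median centring of each array gave 97 higher and 122 lower. Of the 21 genes of the ground tissue step 4 were among them: TMO7, HSFA2, AT1G73530 and NRPB8A. Both contrasts use the same GSC_EG arrays, and the choice of the 21 genes on them favours this overlap. TMO7 had 2.91, 2.48, 3.06 and 2.46 in VSC_EG, all below the ground tissue arrays given above (1.87, adjusted p = 0.0361), and its vascular step was 0.61 (adjusted p = 0.676). HSFA2 had 5.05, 2.54, 3.18 and 3.30 in VSC_EG, where VSC_EG 1 exceeded GSC_EG 4 (2.61, adjusted p = 0.00888), and its vascular step was 0.03. AT1G73530 had 1.87, 2.04, 3.18 and 2.84 in VSC_EG (2.06, adjusted p = 0.033). NRPB8A had 3.45, 3.22, 2.95 and 3.50 in VSC_EG, all above the ground tissue arrays (-1.62, adjusted p = 0.0344), and its vascular step was -0.66 (adjusted p = 0.553).

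HSP70 was the largest named rise in ground tissue over vascular nuclei, with the 4 ground tissue values given above against 2.73, 3.11, 3.14 and 2.86 in VSC_EG (3.6 ± 0.505, adjusted p = 0.000915). Next were AGP22, an arabinogalactan peptide (2.64), the Hsp110-type chaperone Hsp70-15 (2.59), the pectin methylesterase PME5 (2.16), the carboxylesterase CXE16 (2.14) and the phosphoenolpyruvate carboxylase PPC3 (2.14). PPC3 had 4.09, 3.79, 4.04 and 4.34 in GSC_EG against 2.22, 1.68, 1.03 and 2.78 in VSC_EG, a clear gap. The largest named falls were the MIR845a locus (-2.56), the heme oxygenase gene HO2 (-2.19), SCRL26 (-2.04), RLP20 (-2.04), AIG2L (-2.03) and ZPR4 (-1.97). ZPR4, a small leucine zipper protein that binds class III homeodomain proteins, had 1.18, 2.08, 2.09 and 1.90 in GSC_EG against 3.36, 4.48, 3.44 and 3.84 in VSC_EG, without overlap (adjusted p = 0.00861). AIG2L did not separate as cleanly, with 1.62, 1.3, 1.79 and 1.86 in GSC_EG and 2.7, 4.97, 5.15 and 1.86 in VSC_EG. At the ground tissue step itself these genes were not called: HSP70 changed by 2.30, AGP22 by 1.56, Hsp70-15 by 1.67, PME5 by 1.02, ZPR4 by -0.68 and MIR845a by -0.89.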

How the data were processed

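Per the labels' protocols, nuclei were purified by INTACT and their RNA was amplified and labelled with biotin, with 3 or 4 pooled biological replicates in each group. The authors deposited 1 intensity per locus and array on a linear scale, made with RMA per the submitters' processing notes. No RMA setting, probe set definition or genome build is given in the sources used here. The interquartile range of the log2 values differs between arrays, which quantile normalization of all arrays together would not leave, so whether they were normalized together is unknown, and this bears on every log2 change. P-values measure the spread between pools within groups, estimated over all 11 groups and 38 arrays and not from the compared groups alone. The main fit had 27 residual degrees of freedom, against 5 in a fit of the GSC_EG and ILT_16C arrays alone. This spread may in part be technical.

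Deposited intensities were turned to log2 with no filter and no further scaling. A linear model with 11 group means over all 38 arrays was fitted with limma 3.58.1 (lmFit and eBayes, R 4.3.3), and two-sided p-values were adjusted over all 27826 loci by Benjamini-Hochberg. A gene is called at an adjusted p under 0.05, and 4 contrasts were tested. The code was tested on simulated data. The number of arrays limits the precision. Names came from the TAIR10.1 gene table, which lists 27241 of the loci and a symbol for 10556 of them.

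The groups compared and the 24 lists were chosen with earlier results of these data known, and the lists were written from textbook knowledge. Named genes were the called genes with a symbol and no overlap between groups (at most 12 in each direction at the step, 6 elsewhere), all members of the ground tissue and vascular lists and, of other lists, up to 6 called genes or else the 2 with the largest change. A gene of the vascular list is counted with its list and not reported here by itself. Alternatives covered scaling, a filter on dim genes, array weights, the variance trend, the arrays in the fit, a replicate block, array spread, a 2-fold threshold and each array left out.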

Additional observations from a re-analysis of the deposited data

Results flagged for a closer look

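In 3 of the 58 groups of 4 arrays examined, 1 array lay far from the other 3, measured by its gap against the range of the group; chance gives about 1 in 20. GSC_EG 1 had 5.99 for GRP9, GSC_EG 4 had 3.64 for AT5G41740 and GSC_EG 1 had 3.3 for UGT72E2.

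For 19 genes the ground tissue step differed from the whole-embryo step by the test of that difference (log2 change in GSC_EG minus ILT_16C, less that in EMB_EG minus EMB_16C). The differences were -5.53 for GRP9, -5.23 for PYK10, -5.05 for EXT4, -5.03 for AT4G11320, -4.89 for LRX1, -4.77 for AT4G12545, -4.48 for HRGP1 and -4.14 for UGT72E2. They were -3.68 for AT3G32980, -3.38 for AT1G19130, -3.27 for BBX21, -3.0 for LAC7, -2.66 for AT3G60450, -2.48 for AT3G05730, -2.37 for AT3G45210 and -2.15 for CYP79B2. The 3 positive differences were 2.95 for AT2G04360, 2.99 for SAP and 3.3 for AT5G22580.

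For 4 of the 21 genes called at the step, the ground tissue step differed from the vascular step, which starts from the same ILT_16C arrays. The choice of the 21 genes on the same GSC_EG arrays favours this overlap. The differences were 2.61 for HSFA2, 2.06 for AT1G73530, 1.87 for TMO7 and -1.62 for NRPB8A.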

How the results depend on the processing

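For the 21 calls of the ground tissue step, the count was 3 after quantile normalization, 12 after median centring, 11 without dim genes, 6 with array spread as a covariate, and 0 in limma with only the arrays compared (2014 at an unadjusted p under 0.05) or against a 2-fold threshold (91). It ranged from 6 to 72 when single arrays were left out, with 72 without ILT_16C 1, 6 without GSC_EG 1, 12 without GSC_EG 2 and 7 without GSC_EG 3. For the 52 calls of the whole-embryo step the count was 79 without dim genes, 184 with array weights, 93 with array spread, 7 with only the arrays compared and 0 against the 2-fold threshold (170), and 18 to 76 over single arrays left out (18 without EMB_EG 1, 23 without EMB_16C 1). For the 19 calls of the difference it was 12 after quantile normalization, 31 without dim genes, 33 with an intensity trend, 36 with array weights, 7 in a fit of the 4 groups alone and 2 against the 2-fold threshold, and 12 to 51 over single arrays (51 without ILT_16C 1, 30 without ILT_16C 3, 35 without GSC_EG 2, 40 without EMB_EG 4, 12 without EMB_16C 1). For the 206 calls of GSC_EG against VSC_EG it was 45 after quantile normalization, 110 without dim genes, 1019 with array weights, 68 with array spread, 5 in a fit of these groups alone and 0 against the 2-fold threshold (163), and 10 to 720 over single arrays (566, 10, 38 and 720 without VSC_EG 1 to 4, and 43, 135 and 48 without GSC_EG 1 to 3).

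Replicate numbers did not pair the arrays: the correlations of deviations between same-numbered GSC_EG and ILT_16C arrays were -0.035, 0.062 and -0.066. With the number as a replicate block the counts were 8 at the ground tissue step, 50 in the whole embryo, 27 in the difference and 246 in GSC_EG against VSC_EG. Among the called genes and SHR no value turned its sign under an alternative: at the ground tissue step 149 of 324 gene values kept their side of the threshold and 175 did not, and in the difference 322 of 416 did and 94 did not. The causes were not tested.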
